A study of Mus musculus with 28 samples.

Results

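Binding of Forkhead transcription factors was examined around Pou5f1, Sox2 and Sall4, 3 genes of the pluripotency network, in mouse embryonic stem (ES) cells. Every binding event within 50 kb of either end of these genes was taken, which gave 97 of the 162571 events in 14 lists. The genes are 3 of 21887 protein-coding genes in the gene table. The events came from ChIP-exo, a form of ChIP-seq with an exonuclease step that narrows each fragment to the edge of the bound protein, so that an event is given as a single base of the mm10 genome. The event caller gave each event a score of 43 to 1000, where 1000 is a ceiling. What the score measures is not stated.

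All cells descended from MC1 ES cells (129S6/SvEvTac), and all lines but the empty control held, at the Rosa26 locus, a puromycin resistance gene and a construct for 1 factor with a C-terminal His6-FLAG tag. Doxycycline (Dox) kept the construct silent, and Dox was washed out and the cells moved to differentiation medium to switch it on, so that time after Dox removal is also time in that medium. Each factor was studied in 1 engineered line, which expressed it from a construct and not from its own gene. At 24 h, FoxA1 (3 libraries, 2 with anti-FLAG and 1 with anti-FoxA1), FoxC1, FoxL2 and FoxP3 (2 anti-FLAG libraries each) had 1 list per factor, which names no library and was taken to combine them all, called the combined list here. FoxA1 was also followed at 0, 6, 12, 24 and 48 h with anti-FoxA1 and with anti-FLAG, with 1 library and 1 list per antibody and time. An empty control line without a factor (2 libraries at 0 h) has no list used here, so no background from that line stands beside the values. The lists hold between 15 and 41726 events and no reads, so depth is unknown, and how far depth sets the length of a list was not tested. No list has a replicate list beside it, so no difference below carries a test, and the labelled cell type could not be checked against markers, since no expression was measured.

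Pou5f1 encodes Oct4, a POU-domain factor, and Sox2 encodes an HMG-box factor. Together they bind composite octamer and Sox elements, at their own genes among others, and hold ES cells in the undifferentiated state. Sall4, a zinc-finger factor, binds and supports the Pou5f1 gene in ES cells and is needed early in development. Pou5f1 has a proximal and a distal enhancer shortly upstream of its promoter, and Sox2 has nearby enhancers as well as a control region far downstream that is active in ES cells. Forkhead factors share a winged-helix domain that reads variants of a short shared DNA word. FoxA1 is a pioneer factor of endoderm and liver, FoxC1 acts in mesoderm, FoxL2 in ovarian granulosa cells and FoxP3 in regulatory T cells.

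No event of any list lay inside Pou5f1 or Sox2, or within the 250 bases upstream of their first listed starts. The event nearest to Pou5f1 was a FoxP3 event 910 bp upstream (score 167). The event nearest to Sox2 was an anti-FoxA1 event at 24 h, 1685 bp upstream (score 72). These 250-base stretches are shown because they are the promoters that stayed without an event while both genes had top-scoring FoxA1 places at a distance. They are from RefSeq on GRCm38.p6 (the mm10 assembly), plus strand, at chr17:35505782-35506031 for Pou5f1 and chr3:34649745-34649994 for Sox2, and capitals would mark a match to the words searched.

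Pou5f1: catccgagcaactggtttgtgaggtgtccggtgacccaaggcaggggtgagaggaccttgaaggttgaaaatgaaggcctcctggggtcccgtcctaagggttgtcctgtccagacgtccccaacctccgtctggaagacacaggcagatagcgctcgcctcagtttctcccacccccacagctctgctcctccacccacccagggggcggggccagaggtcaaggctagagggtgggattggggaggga
Sox2: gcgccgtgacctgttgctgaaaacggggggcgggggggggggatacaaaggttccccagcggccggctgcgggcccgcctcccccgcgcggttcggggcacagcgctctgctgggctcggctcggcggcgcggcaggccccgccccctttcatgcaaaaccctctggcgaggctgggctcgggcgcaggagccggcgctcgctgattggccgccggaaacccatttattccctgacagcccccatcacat

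The words were searched on both strands. The first Forkhead word was TGTTTAC, which is found in 3.17% of 32851 promoters of the same length. A variant of it that Forkhead factors also bind, TGTTTGC, is found in 4.3% of these promoters. The shorter Forkhead core TAAACA lies within the reverse complement of the first word and is found in 12%. The octamer read by POU factors, ATGCAAAT, is found in 1.6%, and the word CATTGT, read by Sox factors, in 10.7%. None of these letters is in either stretch. A second listed start of Pou5f1, at position 35508807 inside the gene, has 1 match, the Sox word on the minus strand at base -158. The promoter table matched 2 of the 3 genes and Sall4 is not in it.

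The 3 genes had unequal numbers of events around them. Sall4 had 12 events in the combined lists, Pou5f1 had 10 and Sox2 had 3. Over all 14 lists the counts were 40 at Pou5f1, 40 at Sall4 and 17 at Sox2. The Sall4 window is the longest, at 118870 bp against 104746 bp for Pou5f1 and 102467 bp for Sox2, because the gene itself is longer.

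In the combined FoxA1 list (32948 events), 6 events lay near Pou5f1, 2 near Sox2 and 8 near Sall4. All 3 genes thus had a FoxA1 event, as did 73.4% of all protein-coding genes, whose median was 2 events. As many events as Sall4 or more were found at 5.01% of genes, and as many as Pou5f1 or more at 11.5%. Sox2 was at the median, and 53.1% of genes had at least its 2 events.

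FoxP3 had events at 2 of the 3 genes, with 2 at Pou5f1, 3 at Sall4 and none at Sox2, while 20.6% of genes had any. At least 2 FoxP3 events were found at 6.3% of genes and at least 3 at 2% of genes, which is where Pou5f1 and Sall4 stood. FoxL2 had events at all 3 genes, with 2 at Pou5f1 and 1 each at Sox2 and Sall4, beside 30.9% of all genes. FoxC1, with the shortest combined list (1112 events), had none at any of the 3, beside 7.26% of genes with one. The nearest FoxC1 event was 74556 bp from Sall4, 112325 bp from Sox2 and 1604197 bp from Pou5f1.

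In the FoxA1 time courses, none of the 4 lists at 0 and 6 h had an event in the 3 windows. These lists hold between 15 and 86 events, and at most 0.576% of genes had an event in any of them. With anti-FoxA1 at 12 h, Pou5f1 had 5 events, Sox2 1 and Sall4 2, and 36.6% of all genes had at least 1. As many as the 5 events at Pou5f1, or more, were found at 0.973% of genes at that time. The counts were 8, 5 and 10 at 24 h (73.5% of all genes had an event) and 8, 5 and 13 at 48 h (76.6%), in the order Pou5f1, Sox2 and Sall4.

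With anti-FLAG, whose lists from 12 h on were shorter, the counts were lower but for Sox2 at 12 h, where both antibodies had 1. At 12 h Pou5f1 and Sox2 had 1 event each and Sall4 had none, beside 9.81% of all genes with an event. At 24 h the counts were 5, 1 and 2 (51.6% of all genes had an event), and at 48 h they were 3, 1 and 1 (49.1%). At these later times Pou5f1 led with anti-FLAG and Sall4 led with anti-FoxA1. At least 5 anti-FLAG events at 24 h were found at 4.42% of genes, and at least 2, as at Sall4, at 28% of genes.

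**Figure D1:**
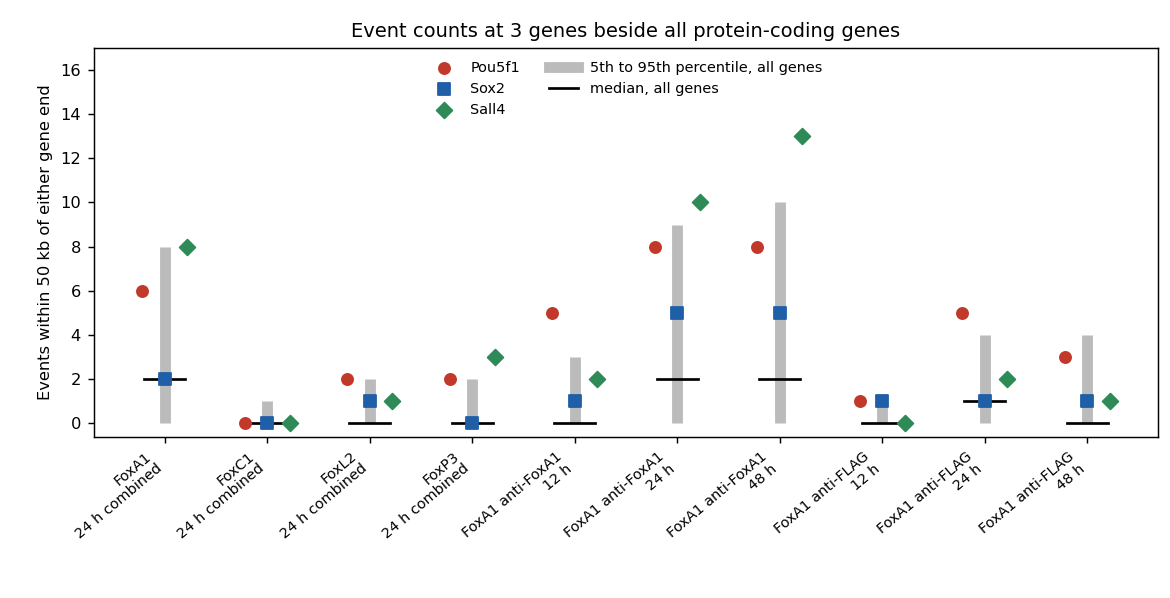
Number of events within 50 kb of either gene end (vertical axis) in the 4 combined lists and the 6 FoxA1 course lists from 12 h on (horizontal axis), for Pou5f1 (circles), Sox2 (squares) and Sall4 (diamonds), with the 5th to 95th percentile (grey bars) and the median (black lines) over 21887 protein-coding genes. Sall4 stands above the grey bar for FoxP3 and with anti-FoxA1 at 24 and 48 h, and Pou5f1 with anti-FoxA1 at 12 h and anti-FLAG at 24 h, while Sox2 lies within the bar in every list shown.

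Events of different lists often fell on the same few bases. Joined where they lay within 100 bp, the 97 events formed 37 places, 12 at Pou5f1, 7 at Sox2 and 18 at Sall4. Of these, 15 were found in 1 list, 15 in 2 to 4 lists and 7 in 5 or more. The highest score at a place had a median of 54 (range 43 to 305) for places of 1 list, 113 (53 to 434) for 2 to 4 lists and 388 (114 to 1000) for 5 or more. A place in more lists has more scores from which the highest was taken, and the part of this in the order was not tested. A FoxA1 event was present at 32 of the 37 places. The 10 course lists are all of FoxA1 and gave 72 of the 97 events, and the combined FoxA1 list gave 16. The same share of places was not counted over the genome.

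**Figure D2:**
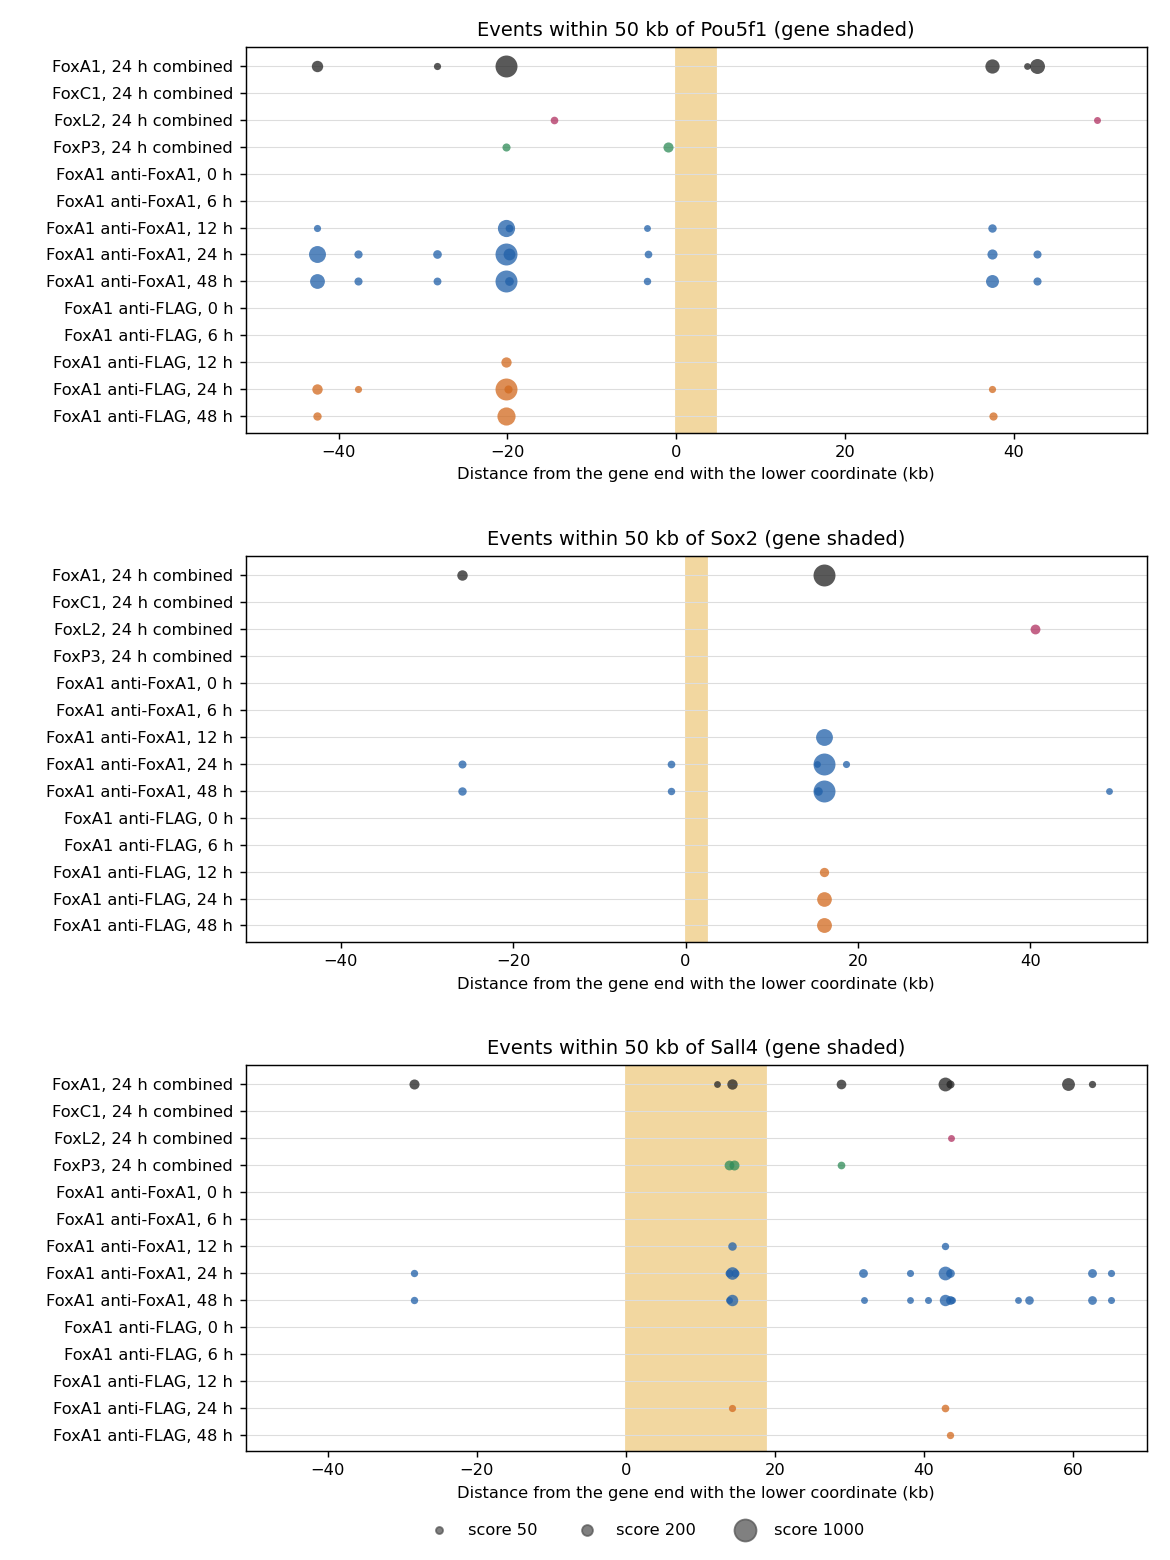
Events around Pou5f1, Sox2 and Sall4, with distance in kb from the gene end of lower coordinate on the horizontal axis and the 14 lists on the vertical axis. Each point is 1 event, its area grows with its score, and the gene is shaded. At Pou5f1 and at Sox2 the largest points form 1 column outside the gene in each panel, while at Sall4 no point reaches the ceiling of 1000 and several lie inside the gene.

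Around Pou5f1 (chr17:35506032-35510777, plus strand, gene identifier 18999) the strongest place lay 20174 bp upstream, outside any gene of the table and nearer to H2-Q10, a histocompatibility gene, than to Pou5f1. It was found in 8 lists, all within 8 bp (35485852 to 35485859). The score was 1000 in the combined FoxA1 list, and 591, 1000 and 1000 with anti-FoxA1 at 12, 24 and 48 h. With anti-FLAG it was 175, 1000 and 664 at the same times. The combined FoxP3 list had an event on the same base as the FoxA1 event, with a score of 87. This place was the only one of the window called by anti-FLAG at 12 h and the only one shared by 2 factors.

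A second place 19802 bp upstream (35486152 to 35486289) was called in both courses but in no combined list. Its scores were 74, 247 and 109 with anti-FoxA1 at 12, 24 and 48 h, and 87 with anti-FLAG at 24 h. The place farthest upstream, 42525 bp from the gene, was found in 6 lists within 13 bp. Its score was 227 in the combined FoxA1 list, 55, 570 and 422 with anti-FoxA1 at 12, 24 and 48 h, and 180 and 96 with anti-FLAG at 24 and 48 h. Both places were thus highest at 24 h with either antibody that called them. Between them, places 37679 bp and 28346 bp upstream scored 92 and 108 with anti-FoxA1 at 24 h and 87 and 79 at 48 h. The first of these was in the anti-FLAG list at 24 h (54) and the other in the combined FoxA1 list (56).

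Closer to Pou5f1 lay places of single factors. A place 3397 bp upstream, inside the long noncoding RNA gene Gm32362, was called with anti-FoxA1 alone, with scores of 46, 72 and 64 at 12, 24 and 48 h. The FoxP3 event 910 bp upstream, also inside Gm32362, had no event of another list within 100 bp, and its score of 167 stood at percentile 78.9 of the FoxP3 list. A FoxL2 event 14501 bp upstream (score 71) was alone as well. These were the 3 places of the 12 for which Pou5f1 was the nearest protein-coding gene.

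On the far side of Pou5f1, all 4 places lay in Cdsn, which encodes corneodesmosin, an adhesion protein of the skin. The nearest, 32711 bp past the end of Pou5f1, was found in 6 lists over 54 bp. Its scores were 388 in the combined FoxA1 list, 99, 168 and 310 with anti-FoxA1 at 12, 24 and 48 h, and 56 and 92 with anti-FLAG at 24 and 48 h. Its anti-FoxA1 score was higher at each later time, which none of the other 4 Pou5f1 places called at all 3 times showed, 1 of them being at the ceiling from 24 h. A further place 37971 bp past the end scored 434 in the combined list and 87 and 88 with anti-FoxA1 at 24 and 48 h. Single events of FoxA1 (43, at 36864 bp) and FoxL2 (49, at 45159 bp) made up the rest. No event lay in Tcf19, Cchcr1 or Psors1c2, the genes between Pou5f1 and Cdsn, or in H2-Q10 upstream.

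Around Sox2 (chr3:34649995-34652461, plus strand, gene identifier 20674) a single place carried most of the signal. It lay 13591 bp past the end of the gene, and 7 FoxA1 lists called it within 9 bp (34666047 to 34666055). The score was 1000 in the combined list and 564, 1000 and 1000 with anti-FoxA1 at 12, 24 and 48 h. With anti-FLAG it was 133, 415 and 426. FoxC1, FoxL2 and FoxP3 had no event there. Within the 50 kb window it was the only Sox2 place called with anti-FLAG and the only one called at 12 h.

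The other Sox2 places were in 1 to 3 lists each. A place 25874 bp upstream scored 183 in the combined FoxA1 list and 85 and 98 with anti-FoxA1 at 24 and 48 h. The place 1685 bp upstream scored 72 and 64 at those times and was in no other list, and one 12834 bp past the end scored 43 and 103. Events of 54 (24 h, 16104 bp past the end) and 45 (48 h, 46672 bp) were each in 1 anti-FoxA1 list. FoxL2 had 1 event, with a score of 155, at 38005 bp past the end in the noncoding gene Gm34941, where no other list had one. Sox2ot, a long noncoding RNA gene within which Sox2 lies, held 5 of the 7 places and 15 of the 17 events. Sox2 was the nearest protein-coding gene to all 7.

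A place called by both antibodies at 12, 24 and 48 h was present within 50 kb of Pou5f1 and of Sox2, and not within 50 kb of Sall4, where the nearest such place lay 69818 bp past the end of higher coordinate. Of 52475 places formed in the same way over the genome from the course lists, 1351 (2.57%) were in all 6 of these lists, and 8.46% of protein-coding genes had one within 50 kb. The Pou5f1 and Sox2 places were both at the ceiling in the combined list, as were 1084 of its 32948 events. Both were also at the ceiling with anti-FoxA1 at 24 and 48 h, so these lists cannot rank them. With anti-FoxA1 at 12 h the Pou5f1 place scored 591 and the Sox2 place 564. With anti-FLAG at 12, 24 and 48 h the scores were 175, 1000 and 664 at Pou5f1, against 133, 415 and 426 at Sox2. These differences were not tested.

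Around Sall4 (chr2:168748332-168767201, gene identifier 99377, strand not given in the tables used) the events fell into more places than at the other genes. The highest score was 364, and the window had no event at the ceiling. Sall4 was the only gene of the 3 with events inside it, 11 events of 6 lists at 5 places. All 5 lay 4194 to 6690 bp from the end of higher coordinate. Whether they fall in exons or introns was not analysed here.

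The leading place inside Sall4, 4673 bp from that end, was found in 5 lists. It scored 179 in the combined FoxA1 list, 102, 289 and 230 with anti-FoxA1 at 12, 24 and 48 h, and 56 with anti-FLAG at 24 h. FoxP3 events flanked it without falling on it, with a score of 152 at a place 5052 bp from the end, where anti-FoxA1 scored 80 and 47 at 24 and 48 h, and a lone score of 161 at 4418 bp. FoxP3 thus had its 2 higher-scoring Sall4 events inside the gene, each apart from the combined FoxA1 event. Lone FoxA1 events of 45 (combined list) and 83 (anti-FoxA1, 24 h) completed the group.

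Beyond the end of higher coordinate lay 12 of the 18 places, and no protein-coding gene of the table lies in that part of the window. The strongest, at 23962 bp, was found in 5 lists within 9 bp. Its score was 364 in the combined FoxA1 list, 62, 359 and 230 with anti-FoxA1 at 12, 24 and 48 h, and 72 with anti-FLAG at 24 h. A place at 24656 bp was shared by FoxA1 (86) and FoxL2 (47) in the combined lists, and scored 108 and 114 with anti-FoxA1 at 24 and 48 h and 60 with anti-FLAG at 48 h. The third place of 2 factors within the combined lists of the 3 windows lay at 10019 bp, with FoxA1 at 148 and FoxP3 at 73. Neither course had an event there at any time.

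The remaining Sall4 places were mostly of anti-FoxA1 at the later times. One at 40410 bp was in the combined FoxA1 list alone, with a score of 305, the highest of any place found in 1 list. One at 43643 bp was in the combined list (58) and with anti-FoxA1 at 24 and 48 h (115 and 111). Places at 13033 bp, 19229 bp and 46262 bp were called at 24 and 48 h only, with scores of 113, 53 and 55 at 24 h and 47, 45 and 51 at 48 h. Another 4 were called at 48 h only, with scores of 50, 51, 44 and 104. On the side of lower coordinate there was 1 place, inside Atp9a, a gene for a phospholipid-transporting ATPase, with scores of 165 (combined FoxA1), 61 and 62 (anti-FoxA1, 24 and 48 h).

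Here FoxA1 events were counted from the combined list only, without those of the courses. Of the 22 places in the combined lists at these genes, 3 were shared by 2 factors and none by 3. This share of places was not counted over the genome, but shares of events were. FoxP3 events had a FoxA1 event within 100 bp in 2 of 5 cases (40%, Wilson 95% interval 11.8 to 76.9%, counting error only), beside 42.6% of the whole FoxP3 list. For FoxL2 it was 1 of 4 (25%), beside 18.5% of its list. In the other direction, 2 of the 16 FoxA1 events (12.5%, 3.5 to 36%) had a FoxP3 event within 100 bp, beside 5.85% of the FoxA1 list. Each of these whole-list shares lies within the interval at the 3 genes, so no difference was detectable with so few events.

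At the 3 genes the antibodies called nested sets of places. Anti-FoxA1 gave 28 places at the 3 genes over its course (8 at Pou5f1, 6 at Sox2 and 14 at Sall4) and anti-FLAG gave 9 (5, 1 and 3), and all 9 were among the 28. At 24 h, 7 of 8 anti-FLAG events (87.5%) had an anti-FoxA1 event within 100 bp, beside 86% of that list, and at 48 h it was 5 of 5, beside 90.2%. In reverse, 7 of 23 anti-FoxA1 events (30.4%) at 24 h had an anti-FLAG event, beside 40.5% of the list, and 5 of 26 (19.2%) at 48 h, beside 31%. Pou5f1 thus had 5 of 8 places in both courses, against 1 of 6 at Sox2 and 3 of 14 at Sall4, a difference that was not tested. Over the genome, 17694 of 52475 course places (33.7%) were in both. Anti-FLAG had 19555 places there, so the sets were not fully nested over the genome. The labels do not say whether both antibodies were applied to the same cultures.

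Places appeared at different times. With anti-FoxA1, 8 of the 28 places were first called at 12 h, 15 at 24 h and 5 at 48 h. Over the genome, 15.9% of 50614 anti-FoxA1 places were first called at 12 h, 52.7% at 24 h and 31.2% at 48 h. At Pou5f1 the split was 5, 3 and 0, at Sox2 1, 4 and 1, and at Sall4 2, 8 and 4. Pou5f1 therefore had no place that first appeared at 48 h, while Sall4 had 4. With anti-FLAG, 2 places were first called at 12 h (1 each at Pou5f1 and Sox2), 6 at 24 h (4 at Pou5f1 and 2 at Sall4) and 1 at 48 h (Sall4). Of 19555 anti-FLAG places over the genome, 8.25% were first called at 12 h, 71.8% at 24 h and 19.8% at 48 h.

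Early places were also those with high later scores. The 8 places called by anti-FoxA1 at 12 h were all called again at 24 and 48 h, and their scores at 48 h had a median of 270 (64 to 1000). Places first called at 24 h had a median of 79 at 48 h (45 to 114, over the 13 of 15 that were still called). The 5 first called at 48 h had a median of 50 (44 to 104). The anti-FoxA1 list at 12 h is also shorter (8345 events, against 35134 at 24 h and 41726 at 48 h), and the part of list length in this order was not tested.

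Most places at 24 h were still called at 48 h with anti-FoxA1, but not with anti-FLAG. With anti-FoxA1, 21 of 23 were (91.3%, 73.2 to 97.6%), beside 72% of the whole list at 24 h. With anti-FLAG, 4 of 8 were (50%), beside 61.3%. The anti-FLAG places lost at 48 h were 2 at Pou5f1 and 2 at Sall4, and anti-FoxA1 called all 4 at 48 h. Where anti-FoxA1 called a place at both times, the score was higher at 24 h at 13 places, higher at 48 h at 6 and equal at 2, both at the ceiling. Scores of separate libraries are not calibrated to each other, so these counts describe the lists and not a change in binding.

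**Figure D3:**
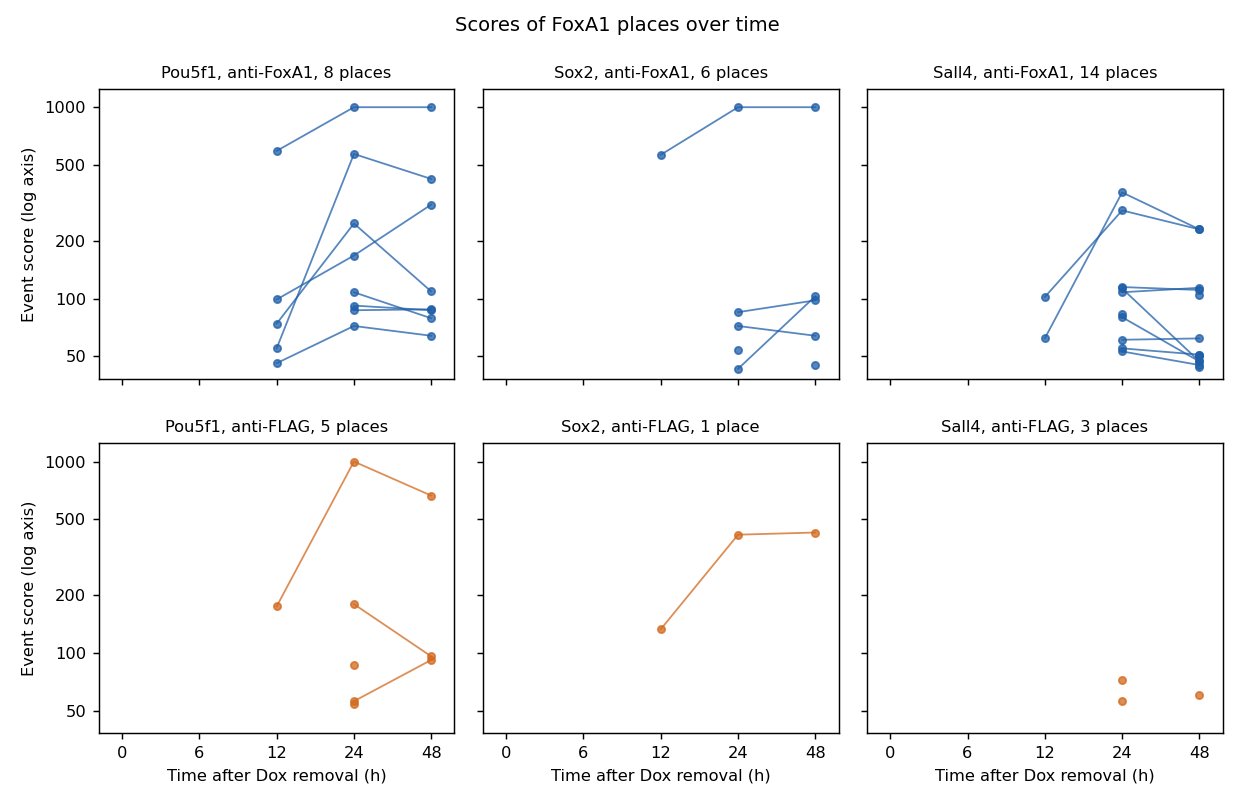
Score of each FoxA1 place (vertical axis, log scale) against time after Dox removal in h (horizontal axis, evenly spaced times), with anti-FoxA1 in the upper row and anti-FLAG in the lower row, for Pou5f1, Sox2 and Sall4. Each point is the score in 1 library, lines join a place's scores at neighbouring times, and a time without a point had no call. No place has a point at 0 or 6 h, and in each anti-FoxA1 panel the highest scores at 24 and 48 h are on lines that begin at 12 h.

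The combined FoxA1 list and the courses overlapped only in part at these genes. Of the 16 combined FoxA1 events, 12 (75%, 50.5 to 89.8%) had an event of the anti-FoxA1 list at 24 h within 100 bp, beside 54.8% of the whole combined list. The anti-FLAG list at 24 h had 6 of the 16 (37.5%), beside 33%. The 12 events found in a course list had a median score of 205 (56 to 1000), and the 4 found in none had a median of 96.5 (43 to 305). Of the whole combined list, 67.9% of events were found in a course list of any time, beside these 12 of 16. Whether the combined list and the courses share libraries is not stated.

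The window of 50 kb left out strong places at all 3 genes. The last events inside the Pou5f1 window were at 42528 bp upstream (score 227) and 45159 bp past the end (49), and the next outside were at 86533 bp (49) and 80346 bp (72). At Sall4 the last inside were at 28436 bp on the low side (165) and 46267 bp on the high side (51), and the next outside at 54519 bp (215) and 53948 bp (57). At Sox2 they were at 25874 bp (183) and 46672 bp (45) inside, and at 89978 bp (59) and 55614 bp (54) outside.

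Between 50 and 100 kb from the genes, Pou5f1 had 11 events at 6 places, Sox2 20 events at 8 places and Sall4 31 events at 11 places over the 14 lists. A Pou5f1 place 87734 bp upstream was in 6 lists, with 260 in the combined FoxA1 list, 115, 1000 and 1000 with anti-FoxA1 at 12, 24 and 48 h, and 295 and 259 with anti-FLAG at 24 and 48 h. A Sox2 place 95397 bp past the end (34747738 to 34747994) was in 7 lists, with more than 1 event in some of them. Both antibodies called it at 12, 24 and 48 h. It scored 265 in the combined FoxA1 list and at most 423, with anti-FoxA1 at 24 h. Past the end of higher coordinate of Sall4, 24 events at 7 places lay between 69 and 77 kb, bounds that were set after the values were seen. The place at 69818 bp scored 916 in the combined FoxA1 list and 163, 1000 and 1000 with anti-FoxA1 at 12, 24 and 48 h. With anti-FLAG it scored 49, 854 and 504. Sall4 thus had a place at the ceiling as well, outside the 50 kb window. A place at 74494 bp was shared by FoxA1 (132), FoxC1 (82) and FoxP3 (85) in the combined lists, and anti-FoxA1 scored 150, 289 and 184 there at 12, 24 and 48 h.

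Past the Sox2 window, between 100 and 115 kb beyond the end of the gene, 41 events formed 13 places. These bounds were set after the values were seen, and this is the side on which the known distal control region of Sox2 lies. The combined FoxA1 list had 9 events there, FoxP3 3, FoxC1 1 and FoxL2 none. Anti-FoxA1 had 4, 9 and 7 events at 12, 24 and 48 h, and anti-FLAG had none, 4 and 4. Like the stretch past Sall4, this one held 1 place of 3 factors, at 112371 bp, with FoxP3 at 295, FoxA1 at 254 and FoxC1 at 46 in the combined lists. Anti-FoxA1 scored 94, 210 and 178 there at 12, 24 and 48 h, and anti-FLAG 91 and 87 at 24 and 48 h. The highest course scores of the stretch were at 101297 bp, where anti-FoxA1 scored 73, 513 and 723 at 12, 24 and 48 h and the combined FoxA1 list 106.

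**Figure D4:**
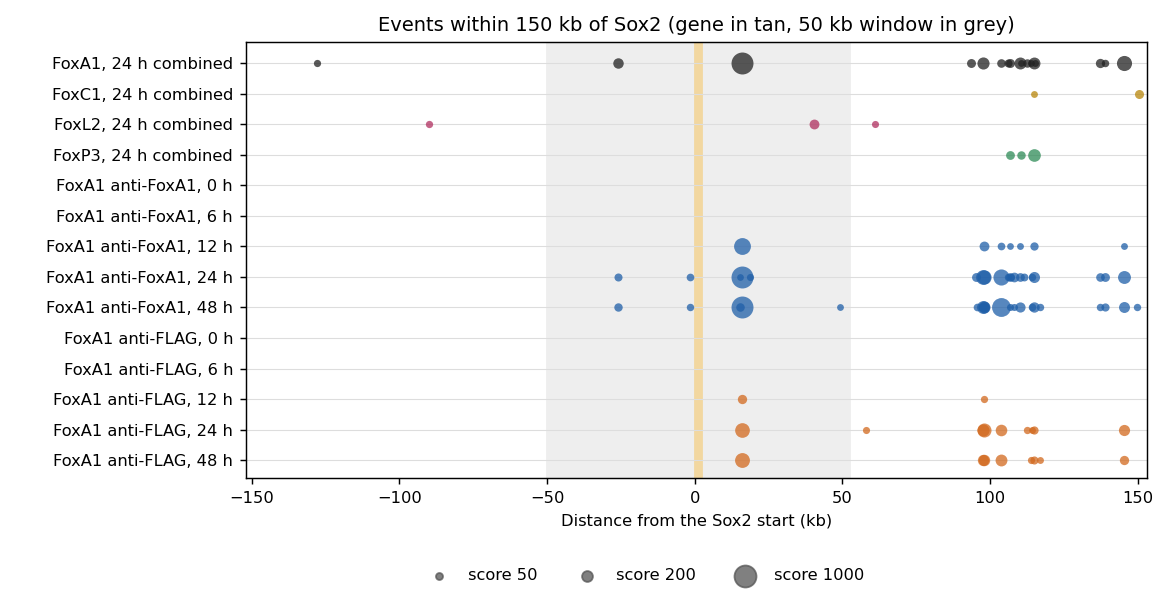
Events within 150 kb of Sox2, with distance in kb from the Sox2 start on the horizontal axis and the 14 lists on the vertical axis. Each point is 1 event and its area grows with its score, the gene is tan and the 50 kb window grey. The window has 1 column of large points past the gene, and a dense group of events from FoxA1, FoxP3 and FoxC1 lists stands outside it on the right.

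Other genes of the pluripotency network were counted in the same way, from a list of 20 without the 3 genes above. Genes whose windows overlap are counted with the same events, and this was not corrected for. A FoxA1 event was present at 19 of them, a FoxP3 event at 16, a FoxL2 event at 13 and a FoxC1 event at 11 (the shares over all genes are those given above, 73.4%, 20.6%, 30.9% and 7.26%). The median number of FoxA1 events was 6.5 in this list and 2 over all genes. The most combined-list events were at Klf5 and Esrrb (23 each), which encode factors of the naive state, at Prdm14 (19), a germ-line and naive-state regulator, and at Nanog (18), the homeodomain factor that works with Oct4 and Sox2. Pou5f1, Sox2 and Sall4 had fewer than these 4. A FoxC1 event was absent at all 3, as it was at Klf5 and the others of the 20 outside the 11 with one. Of all protein-coding genes, 7.26% had one.

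Genes with Oct4 and Sox2 elements in their enhancers were counted in a list of 5. Nanog, Utf1 and Fgf4 are in this list and also in the network list above, so the lists are not independent. FoxA1 events were near all 5, FoxL2 events near 3, and FoxC1 and FoxP3 events near 2 each, beside 73.4%, 30.9%, 7.26% and 20.6% of all genes. The combined-list counts were 18 at Nanog, 9 at Fbxo15, 8 at Lefty1 and 2 at Utf1. These counts span those of Pou5f1 and Sall4, and the count of 3 at Sox2 lay near that of Utf1.

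Of 13 other POU genes, 9 had a FoxA1 event, 8 a FoxL2 event, 2 a FoxC1 event and 1 a FoxP3 event, beside 73.4%, 30.9%, 7.26% and 20.6% of all genes. The family was led by Pou2f1 with 13 combined events, Pou2f2 with 7 and Pou2f3 and Pou6f1 with 6 each. Of 18 other Sox genes, 15 had a FoxA1 event, 4 a FoxP3 event, 3 a FoxL2 event and 2 a FoxC1 event, beside 73.4%, 20.6%, 30.9% and 7.26% of all genes. It was led by Sox15 with 8, Sox13 and Sox30 with 6 each and Sox4 with 5. The median count in the combined FoxA1 list was 1 in both families, against 2 over all genes. With anti-FoxA1 at 24 and 48 h it was 2 in the POU family and 3 in the Sox family at both times, against 2. FoxA1 events were near all 3 other Sall genes, FoxL2 and FoxP3 events near 2 each and a FoxC1 event near 1, with the same shares over all genes. Sall1 had 16 combined events, Sall2 had 10 and Sall3 had 1.

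Among the 20 network genes, those whose counts over 10 lists were most like a member's were found by the sum of absolute differences. For Pou5f1 they were Nr5a2 (sum 9) and Klf4 (10), for Sox2 Utf1 (6) and Gbx2 (10), and for Sall4 Tdgf1 (7) and Klf4 (12). Over all protein-coding genes, 121 were as close to Pou5f1 as Nr5a2, 1131 as close to Sox2 as Utf1, and 29 as close to Sall4 as Tdgf1. These numbers were taken at a different sum for each gene and were not adjusted for its number of events (17 at Sox2, 40 at Pou5f1 and at Sall4). They therefore do not show that a profile is common or rare apart from that number.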

How the data were processed

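ChIP-exo events of FoxA1, FoxC1, FoxL2 and FoxP3 were taken from 14 lists of 21 libraries. Some items of the series are not reported here. The submitters' processing notes name BWA 0.7.17-r1188, Picard, SAMtools and the mm10 build. ChExMix is the event caller per the file headers. Its settings, and how libraries were combined, are not stated. The authors deposited a score for every event, which was used as it stands. The second empty control library names anti-FoxA1 in its title and anti-FLAG in its characteristics.

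Events within 50 kb of either gene end were counted (Python 3.11.15) on the GRCm38.p6 gene table, which matched every symbol of the lists. Counts over all protein-coding genes stand beside those of the 3 genes, with no test. Events within 100 bp of each other, by single linkage, formed a place. Shares have Wilson 95% intervals (statsmodels 0.14.6), which cover counting error only, and the counting was tested on simulated data. The genes and lists were chosen with earlier results of these data known. Named genes were the 3 members, genes that hold or are nearest to their events, up to 4 per list with the most combined events, and the 2 network genes with the likest counts. Promoter stretches were printed where a table held them and an event lay near. Alternatives were windows of 20, 100 and 150 kb (the last added after the data were seen), joining at 50 or 200 bp or the same base, only events at or above their list's median score, lists of equal length, and lists without events at 0 h events. Figures were drawn with matplotlib 3.10.9.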

Additional observations from a re-analysis of the deposited data

How the results depend on the processing

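The counts depended most on the window and the list length. The 10 combined-list events near Pou5f1 became 2 with a window of 20 kb, the 3 near Sox2 became 1 and the 12 near Sall4 became 6. With 100 kb, Sox2 had 7 and Sall4 had 19, and with 150 kb, a window added after the data were seen, Sox2 had 25 and Sall4 had 21. Sox2 thus had the fewest events at 50 kb and more than Sall4 at 150 kb. With each combined list reduced to its 1112 top-scoring events or more where scores tied, all 3 genes had 2, so their order was lost. With only events at or above the median score of their list, here called the higher scores, Sall4 and Pou5f1 had 7 each. Places of 2 or more factors in the combined lists went from 3 to 1 on the same base and to 1 with the higher scores. Places found with both antibodies went from 9 to 3 on the same base and to 4 with the higher scores, and places first called by 12 h from 8 to 5 with the higher scores. Network genes with a FoxC1 event went from 11 to 4 with the higher scores, and those with a FoxL2 event from 13 to 8 with 20 kb. Among the counts for the 4 single factors at each gene, 27 moved by over 1.5 times and 45 did not. Many of these 45 could not have moved. Leaving out events at 0 h events, which gave 12 of the 45, could change no count, since no 0 h event lies in the windows. A count of 0, as for FoxC1 at each gene, could not fall with the 20 kb window, the higher scores or the shorter lists. Windows, score limits and list lengths change how many events enter, and joining changes how they are grouped. No paired analysis was possible because no result comes from a test and each list stands for its group. No replicate could be left out, because a combined list does not say which library gave an event. Depth is unknown, so a missing event is not evidence of an unbound site.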
